A study of Mus musculus with 12 samples.

Results

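The genes described here are 10 ligands and receptors of the FGF, PDGF and EGF families, taken by symbol from a table of 46731 mouse genes: the ligands *Fgf2*, *Fgf7*, *Pdgfa* and *Hbegf* and the receptors *Fgfr1*, *Fgfr2*, *Fgfr3*, *Pdgfra*, *Pdgfrb* and *Egfr*. RNA-seq was performed on 12 libraries of ATDC5, a chondrogenic mouse line derived from teratocarcinoma cells, with 3 libraries in each of 4 groups. The groups were shRNA-NC and shRNA-*Ddx5* cells, that is, cells with a stably integrated lentiviral cassette for a control hairpin or for a hairpin against the RNA helicase gene *Ddx5*, either unstimulated in medium or stimulated with IL-1β and TNF-α, and all were collected at 6 h. All 4 groups carried a lentiviral hairpin vector, and no untransduced cells were analysed here. The comparisons address how the loss of *Ddx5* and an inflammatory stimulus change these genes in a cartilage-forming line.

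The knockdown was seen in every library, with *Ddx5* at 32.3% of the shRNA-NC mean in medium and 32.1% with cytokines. Fragments on genes numbered 14119199 to 19276520 per library, and log2 values of libraries in the same group correlated at 0.973 to 0.993. The chondrocyte markers were incomplete: 4 of 12 had a mean of at least 1 FPKM (fragments scaled by gene length and library size) in shRNA-NC cells in medium, among them *Sox9* at 27.5 and *Col2a1* at 12.4 FPKM, whereas *Acan* had 0.00787 FPKM. The summed marker level also moved with the groups, from 41.8 to 48.1 FPKM in shRNA-NC and 32.4 to 35.3 in shRNA-*Ddx5* cells in medium, and from 14.7 to 21.3 and 11.9 to 12.1 with cytokines. *Sox9* and *Col2a1* carried most of this sum, and the markers did not move together: in shRNA-NC and shRNA-*Ddx5* cells in medium *Col2a1* had 12.4 and 0.899 FPKM, whereas *Col11a1* had 0.897 and 4.78 FPKM and *Sox6* 0.171 and 0.914 FPKM. The part of these changes in the results below was not tested. Of the 5 markers in each list, the endothelial sum reached at most 0.152 FPKM and the epithelial sum at most 0.188 in any library. The haematopoietic sum was 0.890 to 2.10 FPKM, nearly all of it *Cd68* (1.41, 1.10, 1.76 and 1.40 FPKM in shRNA-NC and shRNA-*Ddx5* cells in medium and with cytokines, in that order), a lysosomal gene of macrophages that other cells also express, while *Ptprc* was at 0 in every group.

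In the coordinates of the table, which follow GRCm39, the FGF ligands lay at chr3:37402616-37464255 (*Fgf2*, gene 14173, plus strand) and chr2:125876578-125933105 (*Fgf7*, gene 14178, plus strand). The FGF receptors lay at chr8:26008775-26065734 (*Fgfr1*, gene 14182, plus strand), chr7:129764181-129868538 (*Fgfr2*, gene 14183, minus strand) and chr5:33879068-33894412 (*Fgfr3*, gene 14184, plus strand). *Pdgfa* (gene 18590, minus strand) lay at chr5:138961769-138986336, *Pdgfra* (gene 18595, plus strand) at chr5:75311988-75358867 and *Pdgfrb* (gene 18596, plus strand) at chr18:61178194-61218139. *Hbegf* (gene 15200, minus strand) lay at chr18:36637980-36648858 and *Egfr* (gene 13649, plus strand) at chr11:16700153-16868158. Values are summed over all transcripts of a gene, so splice forms such as the epithelial and mesenchymal forms of FGFR2 could not be told apart.

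FGF, PDGF and EGF family ligands bind receptor tyrosine kinases at the cell surface, which dimerise and signal through RAS and ERK, PI3K and phospholipase C. FGFs need heparan sulfate to engage their receptors, PDGFs bind as dimers, and the membrane-bound EGF family ligands are released by metalloproteases. In cartilage, FGFR3 is known as a brake on growth plate chondrocytes, FGFR1 as a mediator of catabolic FGF2 signals, and HB-EGF as a ligand of EGFR, whereas PDGF receptors mark mesenchymal and fibroblastic cells.

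Because the study concerns G-quadruplexes (stacked guanine structures), RefSeq promoter windows of 300 bases were searched on both strands for 4 runs of at least 3 G separated by 1 to 7 bases; matches may overlap. The search covered windows of 7 of the genes, 9 windows in all, and left out *Fgfr1*, *Pdgfrb* and *Hbegf*. Of the 9 windows, 7 held the pattern, belonging to 5 genes, against 18.6% of 32851 mouse promoters. This share was not matched for base composition. In windows with the pattern, 54.4 to 72.8% of the 250 bases before the RefSeq start were G or C. In the windows without it the values were 43.6% and 44%. For *Fgf2*, *Fgfr3* and a window of *Pdgfa*, these 250 bases lay wholly in annotated exons. No window held an NF-κB site (4.505% of all promoters), an AP-1 site TGANTCA (7.81%) or a CArG box (1.63%). The windows without the pattern were those of *Fgf7*, the most abundant of the ligands described here, and *Fgfr2*. Of the 8 genes of this set that were tested, *Fgfr2* had the largest knockdown difference in medium. Both windows are shown as the 250 bases before the RefSeq start, 5′ to 3′ on the gene's strand. They are in lower case throughout because none of the motifs was found, and they overlap no annotated exon; their GRCm39 positions are chr2:125876328-125876577 (plus strand) and chr7:129868539-129868788 (minus strand, within an intron of the longer GENCODE model of *Fgfr2*).
*Fgf7*: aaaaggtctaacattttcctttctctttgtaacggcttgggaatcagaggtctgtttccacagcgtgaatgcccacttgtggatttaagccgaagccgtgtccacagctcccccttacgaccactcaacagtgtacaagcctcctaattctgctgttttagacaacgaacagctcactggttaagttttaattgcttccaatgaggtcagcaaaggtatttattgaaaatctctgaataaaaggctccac
*Fgfr2*: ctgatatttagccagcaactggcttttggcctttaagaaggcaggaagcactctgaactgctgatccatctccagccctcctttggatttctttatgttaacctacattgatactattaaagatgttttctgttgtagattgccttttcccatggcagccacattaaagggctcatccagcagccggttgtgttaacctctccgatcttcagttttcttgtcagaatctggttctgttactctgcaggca
The runs found in *Pdgfa* outside annotated exons follow as examples of the pattern, in capitals over their whole length. They start 72 and 18 bases before a RefSeq start, at chr5:138980090-138980108 and chr5:138980037-138980054. Both lie inside the *Pdgfa* locus given above and not upstream of it. These matches describe letters and not structures formed in the cells. The G-quadruplex that the paper resolves in the *Col2a1* promoter has shorter runs of G than the pattern searched here. The search could not have found a sequence of that kind, so windows without the pattern may still hold one. Whether any of the windows forms such a structure was not tested.
*Pdgfa*, distal: GGGAGGGGACTAGGGCGGG
*Pdgfa*, proximal: GGGACTGGGAAGGGTGGG

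Levels differed widely among the genes. In shRNA-NC cells in medium *Fgfr1* (35.5 ± 1.48 FPKM, SD, n = 3), *Pdgfrb* (30.6 ± 2.51) and *Fgf7* (26.4 ± 0.911) stood highest, followed by *Fgfr2* (4.58 ± 0.0701) and *Pdgfa* (3.98 ± 0.676), whose ranges overlapped. *Fgfr3* (1.67 ± 0.106) and *Hbegf* (1.42 ± 0.198) came next, and their ranges overlapped too. *Pdgfra* had 0.644 ± 0.164 FPKM. *Fgf2* and *Egfr*, the main receptor of HB-EGF, were close to the detection limit, with 31 and 14 fragments summed over the 3 libraries.

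**Figure D1:**
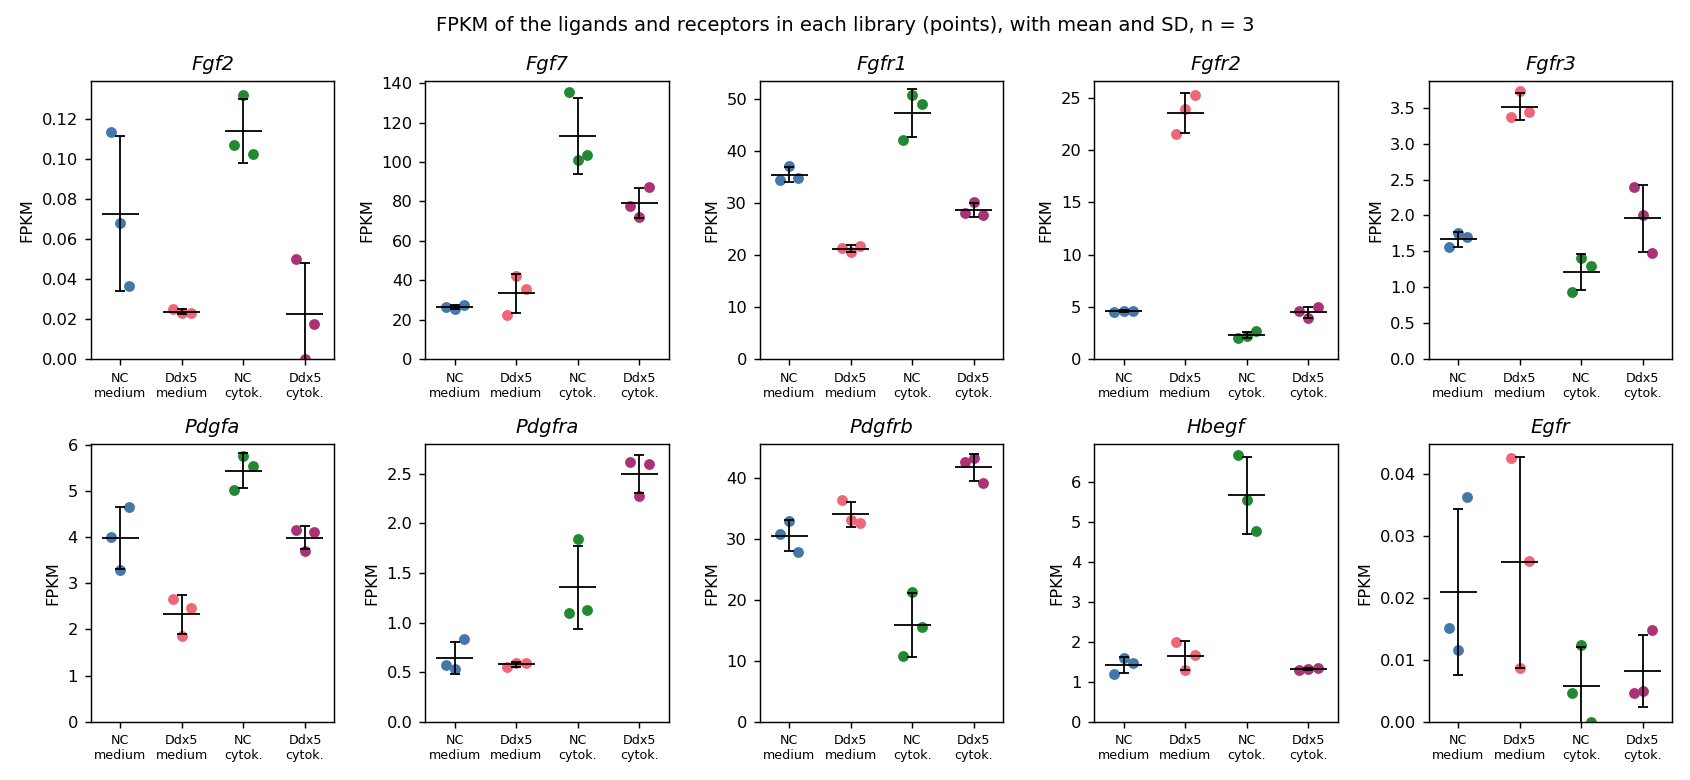
FPKM of each of the 10 genes (vertical axis, linear, own scale per panel) in each library (points) of the 4 groups, with the group mean (line) and SD (bar), n = 3. *Fgfr2* is highest in shRNA-*Ddx5* cells in medium (21.5 to 25.2 FPKM) and *Hbegf* in shRNA-NC cells with cytokines (4.77 to 6.68 FPKM), each apart from the other 3 groups.

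Tests were made with limma on log2(FPKM + 1), on which differences of genes with a low FPKM come out smaller than their fold, for 12368 genes with at least 1 FPKM in at least 3 libraries. A gene passed at a Benjamini-Hochberg adjusted p under 0.05 over all of them. Of the 10 genes 8 were tested. *Fgf2* and *Egfr* were under the filter, and *Pdgfra* reached it only through the libraries with cytokines. In medium, 4 of the 8 passed between shRNA-*Ddx5* and shRNA-NC, 2 higher (*Fgfr2*, *Fgfr3*) and 2 lower (*Fgfr1*, *Pdgfa*), where 47.0% of all tested genes passed, 25.3% higher and 21.7% lower. With cytokines all 8 passed, 4 higher (*Fgfr2*, *Fgfr3*, *Pdgfra*, *Pdgfrb*) and 4 lower (*Fgf7*, *Fgfr1*, *Pdgfa*, *Hbegf*), where 45.6% of all tested genes passed, 23.5% higher and 22.1% lower. The count with cytokines was 5 without shRNA-*Ddx5* with cytokines replicate 1 and 5 without replicate 2 of that group. The median log2 difference over all tested genes was 0.03 in medium and 0.01 with cytokines. Scaling to the sum of fragments moved the share of all calls in medium that were higher from 53.8% to 42.5%.

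**Figure D2:**
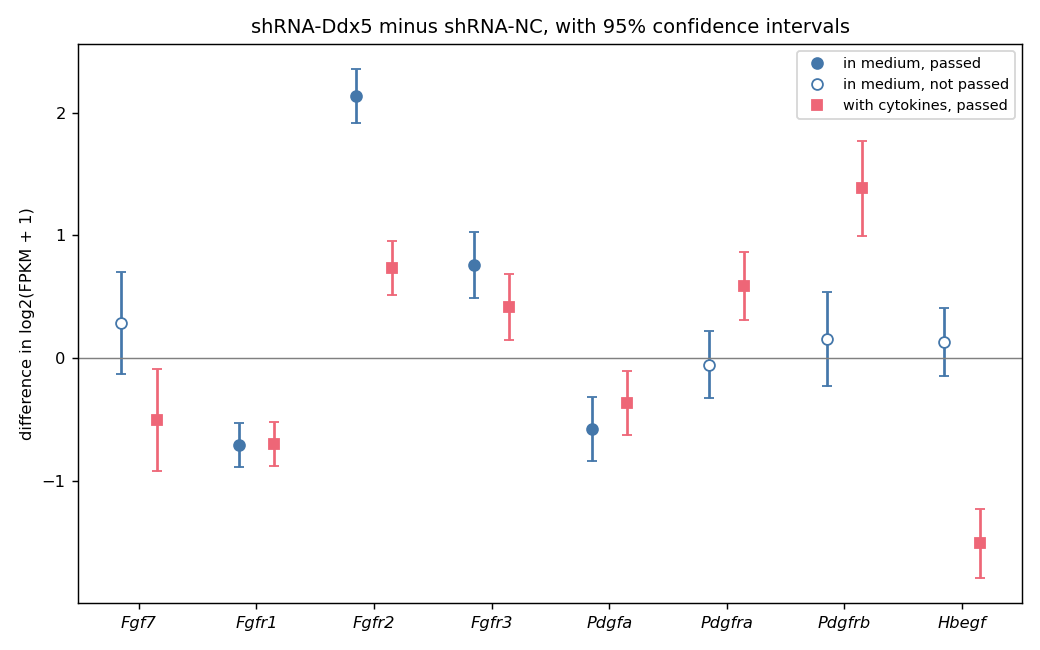
Difference in log2(FPKM + 1) between shRNA-*Ddx5* and shRNA-NC cells (vertical axis) for the 8 tested genes, in medium (circles) and with cytokines (squares), with 95% confidence intervals; open symbols did not pass. *Fgfr1* lies at -0.71 and -0.70, whereas *Fgfr2* lies at 2.13 in medium and 0.73 with cytokines.

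Among the FGF receptors, *Fgfr2* rose and *Fgfr1* fell on knockdown in both media. *Fgfr2*, the receptor of FGF7 in its epithelial form, had 4.501, 4.63 and 4.61 FPKM in shRNA-NC and 21.5, 23.9 and 25.2 FPKM in shRNA-*Ddx5* cells in medium (replicates 1 to 3 in this and the following sentences). With cytokines it had 2.04, 2.20 and 2.67 FPKM in shRNA-NC and 4.57, 3.92 and 4.98 FPKM in shRNA-*Ddx5* cells. Within each medium the lowest shRNA-*Ddx5* library lay above the highest shRNA-NC library. The mean was 5.14-fold higher on knockdown in medium (log2 difference 2.13, standard error 0.099, adjusted p = 1.48e-07) and 1.95-fold higher with cytokines (0.73, standard error 0.099, adjusted p = 1.42e-04). Knockdown thus had a smaller effect on *Fgfr2* with cytokines than in medium, by 1.40 on the log2 scale (interaction -1.40, standard error 0.14, adjusted p = 2.39e-04).

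*Fgfr1*, the receptor of FGF2 and the most abundant FGF receptor in shRNA-NC cells, had 34.5, 37.2 and 34.8 FPKM in shRNA-NC and 21.4, 20.5 and 21.9 FPKM in shRNA-*Ddx5* cells in medium. With cytokines the values were 42.2, 50.9 and 49.0 FPKM against 28.1, 30.2 and 27.7 FPKM. The groups did not overlap in either medium, and the mean was 1.67-fold lower on knockdown in medium (log2 difference -0.71, standard error 0.081, adjusted p = 4.31e-05) and 1.65-fold lower with cytokines (-0.70, standard error 0.081, adjusted p = 4.55e-05). The 2 knockdown effects on *Fgfr1* differed by 0.01 on the log2 scale, with a 95% confidence interval of -0.24 to 0.26.

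*Fgfr3*, the receptor mutated in achondroplasia, had 1.56, 1.76 and 1.69 FPKM in shRNA-NC and 3.38, 3.73 and 3.43 FPKM in shRNA-*Ddx5* cells in medium, without overlap. With cytokines it had 0.933, 1.41 and 1.30 FPKM against 2.40, 2.00 and 1.48 FPKM, and the lowest shRNA-*Ddx5* library was just above the highest shRNA-NC library. It was 2.10-fold higher on knockdown in medium (log2 difference 0.76, standard error 0.12, adjusted p = 4.85e-04) and 1.62-fold higher with cytokines (0.41, standard error 0.12, adjusted p = 0.0168). The call with cytokines was lost without shRNA-NC with cytokines replicate 1 (adjusted p = 0.0628) or shRNA-*Ddx5* with cytokines replicate 1 (0.0770) or 2 (0.0530).

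The balance of FGF receptors therefore differed between the groups. FPKM of *Fgfr2* over that of *Fgfr1* was 0.129 ± 0.00401 (SD, n = 3) in shRNA-NC and 1.11 ± 0.0893 in shRNA-*Ddx5* cells in medium, so that *Fgfr2* reached the level of *Fgfr1* after knockdown. With cytokines the ratio was 0.0486 ± 0.00562 and 0.157 ± 0.0256. *Fgfr3* over *Fgfr1* was 0.0470 ± 0.00179 and 0.165 ± 0.0141 in medium, and 0.0254 ± 0.00289 and 0.0684 ± 0.0161 with cytokines. In both ratios the shRNA-NC and shRNA-*Ddx5* libraries did not overlap in either medium, and since the numerator and denominator are the values tested above, no separate test was made.

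**Figure D3:**
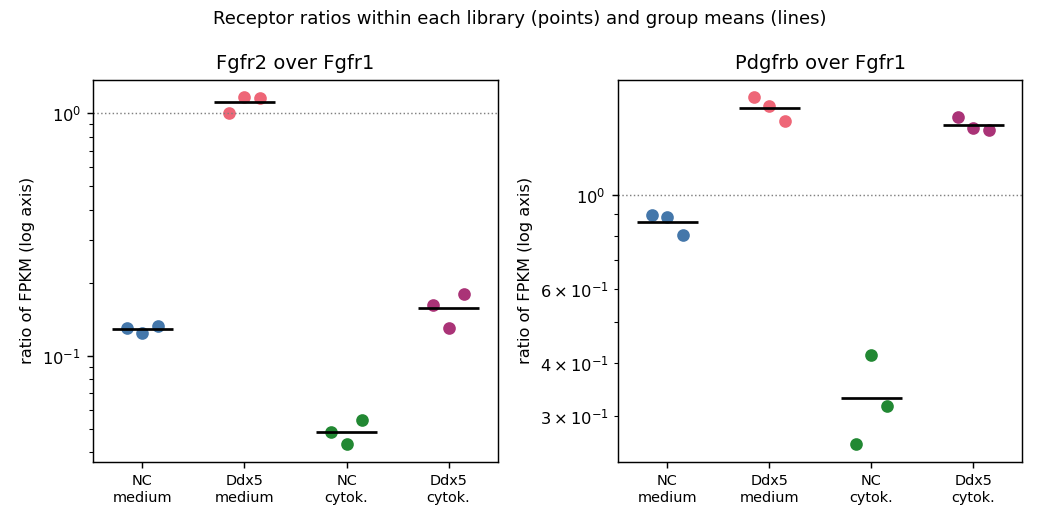
Ratio of FPKM within each library (points; vertical axes logarithmic) and group mean (lines) for *Fgfr2* over *Fgfr1* and *Pdgfrb* over *Fgfr1* in the 4 groups; the dotted line marks equal FPKM. The *Fgfr2* to *Fgfr1* ratio is near equality only in shRNA-*Ddx5* cells in medium (1.00 to 1.16).

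The FGF ligands differed in level and in response. *Fgf7*, keratinocyte growth factor, a mesenchymal ligand, had 26.2, 25.5 and 27.3 FPKM in shRNA-NC and 22.6, 42.2 and 35.3 FPKM in shRNA-*Ddx5* cells in medium, with overlapping groups. Its log2 difference in medium was 0.28 (95% confidence interval -0.13 to 0.70, adjusted p = 0.243); without shRNA-*Ddx5* in medium replicate 1 it was 0.53 (adjusted p = 0.0103), and the interaction then passed as well (-1.04, adjusted p = 0.00819). With cytokines *Fgf7* had 136, 101 and 104 FPKM in shRNA-NC and 77.9, 72.1 and 87.3 FPKM in shRNA-*Ddx5* cells. The groups did not overlap, and the mean was 1.43-fold lower on knockdown (log2 difference -0.51, standard error 0.19, adjusted p = 0.0481). That call stood close to the threshold: it was lost in 10 of 12 fits that left out a library (adjusted p up to 0.169, without shRNA-NC with cytokines replicate 1) and kept only without shRNA-*Ddx5* in medium replicate 1 or 2.

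*Fgf2*, basic FGF, was measured by few fragments: 17, 10 and 4 in shRNA-NC and 3, 3 and 3 in shRNA-*Ddx5* cells in medium, and 13, 18 and 14 against 6, 0 and 2 with cytokines. In each medium every shRNA-*Ddx5* library was below every shRNA-NC library. In an added fit with voom on the fragments, over genes with at least 10 fragments in total, the log2 difference on knockdown was -1.40 in medium (adjusted p = 0.110) and -2.76 with cytokines (adjusted p = 0.00565). A fit of log2(FPKM + 1) without the filter gave adjusted p = 0.107 and 0.00771. Other FGF ligands were scarce: of 22 in the table, *Fgf7* was the only one that reached the filter.

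The PDGF receptors differed between shRNA-*Ddx5* and shRNA-NC cells when cytokines were present. *Pdgfrb*, the receptor of PDGF-BB on mesenchymal and mural cells, had 30.8, 32.9 and 27.9 FPKM in shRNA-NC and 36.4, 33.2 and 32.7 FPKM in shRNA-*Ddx5* cells in medium, with overlapping groups (log2 difference 0.15, 95% confidence interval -0.23 to 0.54, adjusted p = 0.502). With cytokines it had 10.9, 21.3 and 15.5 FPKM against 42.7, 43.4 and 39.2 FPKM. Every shRNA-NC library with cytokines was below every library of the other 3 groups. The mean was 2.62-fold higher on knockdown with cytokines (1.38, standard error 0.18, adjusted p = 9.13e-05), and leaving out a library gave 1.15 to 1.61. The knockdown effects in the 2 media differed by 1.23 on the log2 scale (standard error 0.25, adjusted p = 0.0119).

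*Pdgfra*, the receptor that binds all but the PDGF-DD dimer, had 0.570, 0.531 and 0.832 FPKM in shRNA-NC and 0.550, 0.591 and 0.592 FPKM in shRNA-*Ddx5* cells in medium, with overlapping groups (log2 difference -0.06, 95% confidence interval -0.33 to 0.22, adjusted p = 0.752). With cytokines it had 1.10, 1.84 and 1.12 FPKM against 2.62, 2.28 and 2.60 FPKM. The groups with cytokines did not overlap, and shRNA-NC replicate 2 stood above its group for both PDGF receptors. The mean was 1.85-fold higher on knockdown with cytokines (0.59, standard error 0.13, adjusted p = 0.00287). The interaction was 0.64 (standard error 0.18, adjusted p = 0.0488), a call lost in 11 of 12 fits that left out a library (adjusted p up to 0.115, without shRNA-*Ddx5* with cytokines replicate 3) and kept only without shRNA-NC with cytokines replicate 2 (0.00811). *Pdgfra* over *Pdgfrb* stayed low, at 0.0215 ± 0.00731 and 0.0170 ± 0.00164 (SD, n = 3) in medium and 0.0865 ± 0.0144 and 0.0600 ± 0.00700 with cytokines, for shRNA-NC and shRNA-*Ddx5* cells.

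*Pdgfa*, which encodes the A chain of PDGF, fell on knockdown in both media. It had 4.01, 3.30 and 4.65 FPKM in shRNA-NC and 2.66, 1.86 and 2.47 FPKM in shRNA-*Ddx5* cells in medium, and 5.02, 5.76 and 5.55 against 4.15, 3.71 and 4.10 FPKM with cytokines. Neither pair of groups overlapped. The mean was 1.71-fold lower in medium (log2 difference -0.58, standard error 0.12, adjusted p = 0.00224) and 1.36-fold lower with cytokines (-0.37, standard error 0.12, adjusted p = 0.0259). The call with cytokines was lost without shRNA-NC with cytokines replicate 2 (adjusted p = 0.0758) or 3 (0.0680) or shRNA-*Ddx5* with cytokines replicate 1 (0.0505), 2 (0.0903) or 3 (0.0522).

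*Hbegf*, heparin-binding EGF-like growth factor, showed the largest knockdown difference with cytokines of the 3 ligands tested on the log2(FPKM + 1) scale; *Fgf2*, under the filter, is given above. It had 1.21, 1.597 and 1.46 FPKM in shRNA-NC and 2.00, 1.28 and 1.68 FPKM in shRNA-*Ddx5* cells in medium, with overlapping groups (log2 difference 0.13, 95% confidence interval -0.15 to 0.41, adjusted p = 0.434). With cytokines it had 6.68, 5.55 and 4.77 FPKM against 1.30, 1.32 and 1.34 FPKM, the former being the 3 highest of the 12 libraries. The mean was 4.29-fold lower on knockdown (-1.51, standard error 0.13, adjusted p = 5.47e-06), and the effects in the 2 media differed by -1.64 (standard error 0.18, adjusted p = 4.18e-04). *Egfr*, the receptor of HB-EGF, had 0 to 9 fragments in any library (sums of 14 in shRNA-NC and 17 in shRNA-*Ddx5* cells in medium, and of 4 and 5 with cytokines), and no comparison passed in the fits that included it.

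The cytokines moved most of the genes in both cell lines; both comparisons have their own medium libraries but share the groups used for the knockdown effects above. In shRNA-NC cells 7 of 8 passed, 5 higher (*Fgf7*, *Fgfr1*, *Pdgfa*, *Pdgfra*, *Hbegf*) and 2 lower (*Fgfr2*, *Pdgfrb*), where 33.8% of all tested genes passed, 18.6% higher and 15.2% lower. In shRNA-*Ddx5* cells 6 of 8 passed, 4 higher (*Fgf7*, *Fgfr1*, *Pdgfa*, *Pdgfra*) and 2 lower (*Fgfr2*, *Fgfr3*), where 27.0% passed, 13.5% higher and 13.5% lower. Both counts include *Pdgfra*, which entered the test only through the libraries with cytokines, where it was high, and so had to differ; without it they are 6 of 7 and 5 of 7. The difference between the cell lines in the response (the interaction) passed for 4 of 8, 2 higher (*Pdgfra*, *Pdgfrb*) and 2 lower (*Fgfr2*, *Hbegf*). Over all tested genes 8.21% passed, 3.46% higher and 4.75% lower. The interaction count also includes *Pdgfra*, with the same limit of the filter. Scaling to the sum of fragments moved the share of calls that were higher from 55.1% to 42.2% in shRNA-NC cells, and quantile normalization moved it from 49.97% to 39.0% in shRNA-*Ddx5* cells.

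**Figure D4:**
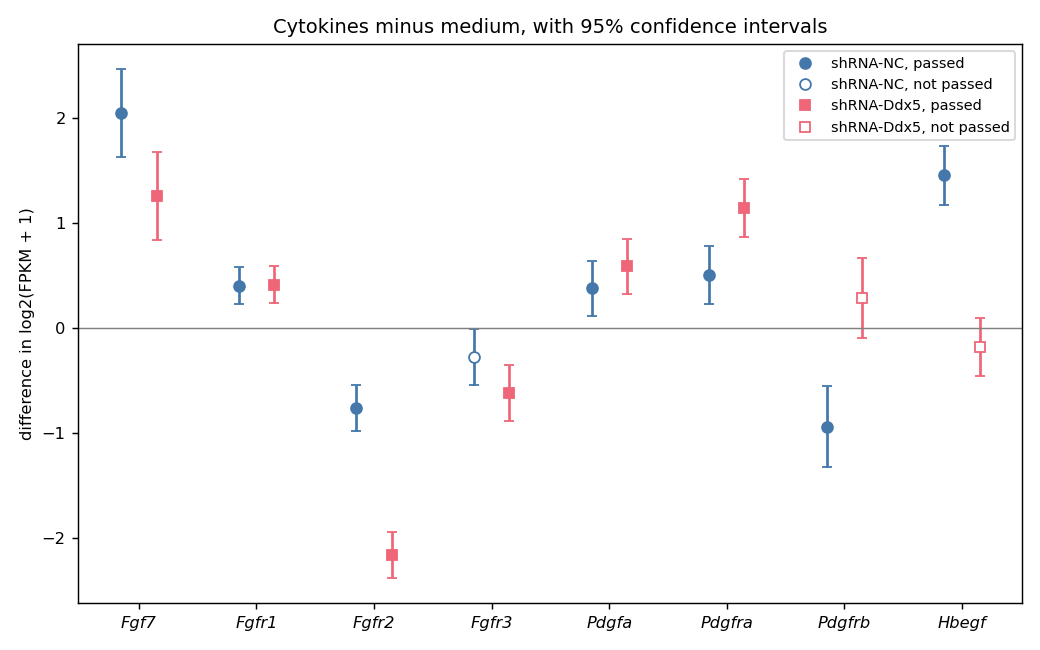
Difference in log2(FPKM + 1) between cells with cytokines and cells in medium (vertical axis) for the 8 tested genes, in shRNA-NC (circles) and shRNA-*Ddx5* cells (squares), with 95% confidence intervals; open symbols did not pass, and *Pdgfra* reached the filter only through the libraries with cytokines. *Hbegf* lies at 1.46 in shRNA-NC and -0.19 in shRNA-*Ddx5* cells, and *Fgfr2* lies at -0.76 and -2.16.

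*Fgf7* rose with cytokines, 4.30-fold in shRNA-NC (log2 difference 2.05, standard error 0.19, adjusted p = 1.35e-05) and 2.37-fold in shRNA-*Ddx5* cells (1.26, standard error 0.19, adjusted p = 4.54e-04); the difference between the responses did not pass (adjusted p = 0.0995). *Fgfr1* rose 1.33-fold (0.40, adjusted p = 0.00297) and 1.35-fold (0.41, adjusted p = 0.00290). *Fgfr2* fell 1.99-fold in shRNA-NC (-0.76, adjusted p = 1.77e-04) and 5.25-fold in shRNA-*Ddx5* cells (-2.16, adjusted p = 3.15e-08), so that its mean in shRNA-*Ddx5* cells with cytokines, 4.49 FPKM, was near that of shRNA-NC cells in medium. *Fgfr3* fell 1.79-fold in shRNA-*Ddx5* cells (-0.62, adjusted p = 0.00308) and had -0.28 in shRNA-NC cells (adjusted p = 0.103), with no difference between the responses that passed (adjusted p = 0.262).

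Among the PDGF genes, *Pdgfrb* fell 1.92-fold with cytokines in shRNA-NC (-0.94, standard error 0.18, adjusted p = 0.00187) and had a log2 difference of 0.29 in shRNA-*Ddx5* cells (95% confidence interval -0.10 to 0.67, adjusted p = 0.259). *Pdgfra* had means of 0.644 and 1.35 FPKM in shRNA-NC cells and 0.578 and 2.50 FPKM in shRNA-*Ddx5* cells, in medium and with cytokines; since it reached the filter only through the libraries with cytokines, this difference is given as a description. *Pdgfa* rose 1.37-fold (0.38, adjusted p = 0.0309) and 1.71-fold (0.59, adjusted p = 0.00363). The call of *Pdgfa* in shRNA-NC cells was lost without shRNA-NC in medium replicate 1 (adjusted p = 0.0599) or 2 (0.124) or shRNA-NC with cytokines replicate 2 (0.0871) or 3 (0.0799). *Hbegf* rose 3.99-fold in shRNA-NC (1.46, standard error 0.13, adjusted p = 7.88e-06) and had -0.19 in shRNA-*Ddx5* cells (95% confidence interval -0.46 to 0.09, adjusted p = 0.312).

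Other genes of these pathways were taken from lists by role. Their knockdown counts are to be read against the 25.3% higher and 21.7% lower of all tested genes in medium and the 23.5% and 22.1% with cytokines. Of 2 further FGF receptor and co-receptor genes that were tested, *Fgfbp3*, a carrier of secreted FGFs, fell on knockdown in medium (6.26 to 2.85 FPKM, log2 difference -0.91, adjusted p = 5.54e-05) and with cytokines (-0.40, adjusted p = 0.00962). *Fgfrl1*, an FGF receptor without a kinase domain, rose in medium (0.30, adjusted p = 0.0277) and fell with cytokines (-0.34, adjusted p = 0.0158). Of 5 further PDGF and VEGF family ligands tested, 2 were higher and 1 lower on knockdown in medium and 1 was higher and 3 lower with cytokines. *Vegfa*, the main angiogenic ligand, fell in medium (17.6 to 8.59 FPKM, log2 difference -0.95, adjusted p = 4.89e-04) and with cytokines (56.1 to 14.0 FPKM, -1.90, adjusted p = 4.62e-06). *Vegfd* rose by 0.84 and 1.22 (adjusted p = 6.57e-04 and 4.87e-05), and *Pdgfc* rose in medium and fell with cytokines (0.40 and -0.55, adjusted p = 0.00379 and 5.12e-04). *Pdgfrl*, a secreted PDGF receptor-like protein, was the one further gene tested among the PDGF class receptors and rose in both media (0.48 and 0.89, adjusted p = 0.0156 and 4.33e-04).

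Of the 4 EGF family ligands tested beside *Hbegf*, 0 were higher and 2 lower on knockdown in medium, and 1 was higher and 3 lower with cytokines. The lower genes in both media include *Btc*, which reached the filter only through the shRNA-NC groups. It had 1.14 FPKM in shRNA-NC and 0.669 in shRNA-*Ddx5* cells in medium, and 1.05 and 0.620 with cytokines. *Ereg*, epiregulin, rose with cytokines on knockdown from 11.99 ± 4.47 to 23.3 ± 0.912 FPKM (SD, n = 3; log2 difference 0.97, adjusted p = 0.00310). *Tgfa*, which also binds EGFR, fell in medium (-0.31, adjusted p = 0.0205) and with cytokines (-0.82, adjusted p = 5.18e-05). *Nrg1*, a ligand of ERBB3 and ERBB4, fell with cytokines (-0.68, adjusted p = 3.54e-04) and had -0.09 in medium (adjusted p = 0.503). *Erbb2*, the ligandless partner of the other ErbB receptors, was the only one of 4 ErbB receptors that was tested; it had 12.4 and 12.02 FPKM in medium, and 10.6 and 13.9 FPKM with cytokines, where it rose on knockdown (0.38, adjusted p = 0.0165). Of 6 proteases and regulators that release these ligands, 0 were higher and 2 lower in medium and 1 was higher and 2 lower with cytokines. *Adam19* fell with cytokines (4.75 to 1.19 FPKM, log2 difference -1.39, adjusted p = 1.21e-06), *Adam9* fell in both media (-0.81 and -0.52, adjusted p = 1.21e-04 and 0.00227), and *Rhbdf2*, a partner of the protease ADAM17, fell in medium and rose with cytokines (-1.003 and 0.56, adjusted p = 3.37e-05 and 0.00159).

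Of 16 heparan sulfate proteoglycan genes tested, which include core proteins and modifying enzymes, 8 were higher and 0 lower on knockdown in medium, and 11 were higher and 1 lower with cytokines, with median log2 differences of 0.40 and 0.32 (over all tested genes 25.3% were higher and 21.7% lower in medium, and 23.5% and 22.1% with cytokines). *Gpc4*, a glypican, had 2.46 ± 0.339 and 10.5 ± 0.648 FPKM in shRNA-NC and shRNA-*Ddx5* cells in medium, and 2.72 ± 1.597 and 20.9 ± 0.101 FPKM with cytokines (SD, n = 3; log2 differences 1.73 and 2.64, adjusted p = 7.94e-05 and 4.56e-06). *Sdc3*, a syndecan, rose by 1.30 and 1.62 (adjusted p = 5.90e-04 and 1.34e-04). *Hspg2*, perlecan, rose by 1.46 with cytokines (adjusted p = 3.04e-04) and had 0.56 in medium (adjusted p = 0.0586). Of 20 receptor adaptors and proximal enzymes, 3 were higher and 8 lower in medium and 1 was higher and 7 lower with cytokines. *Grb14*, an adaptor that restrains receptor signalling, rose in medium (1.32 to 9.83 FPKM) and with cytokines (1.09 to 17.4 FPKM; log2 differences 2.22 and 3.16, adjusted p = 3.38e-07 and 4.27e-08). *Gab2*, a docking protein that reached the filter only through the shRNA-NC groups, had 2.05 and 0.391 FPKM in shRNA-NC and shRNA-*Ddx5* cells in medium and 2.498 and 0.505 FPKM with cytokines, and is counted among the lower genes. *Sos2*, a RAS exchange factor, fell in both media (-0.48 and -0.89, adjusted p = 0.00757 and 1.44e-04).

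Among 11 receptor-level inhibitors tested, 3 were higher and 4 lower on knockdown in medium and 1 was higher and 6 lower with cytokines. The lower genes in both media include *Il17rd*, which reached the filter only through the shRNA-NC groups. It had 1.33 FPKM in shRNA-NC and 0.394 in shRNA-*Ddx5* cells in medium, and 1.17 and 0.419 with cytokines. *Errfi1*, an inhibitor of EGFR, had 30.7 ± 7.23 FPKM in shRNA-NC and 7.13 ± 0.184 FPKM in shRNA-*Ddx5* cells with cytokines (SD, n = 3; log2 difference -1.93, adjusted p = 1.93e-06) and 0.16 on the log2 scale in medium (adjusted p = 0.365). *Spry2*, a feedback inhibitor of FGF receptors, had 3.83 and 0.677 FPKM with cytokines, and it is counted among the lower genes although it reached the filter only through shRNA-NC cells with cytokines. *Lrig3* rose in both media (0.82 and 0.88, adjusted p = 5.04e-06 and 3.05e-06). *Spry4*, under the filter, had 0.268 and 0.0238 FPKM with cytokines.

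Genes that respond to growth factor signals through ERK and SRF were lower on knockdown with cytokines in 13 of 14 tested and higher in 0, with a median log2 difference of -1.09 (22.1% of all tested genes were lower and 23.5% higher), whereas in medium 3 were higher and 4 lower, with a median of -0.21. Without knockdown the cytokines raised 13 of the 14 and lowered 0; in shRNA-*Ddx5* cells they raised 7 and lowered 1, and the interaction was lower for 10 and higher for 0. Over all tested genes the shares higher and lower were 18.6% and 15.2% with cytokines in shRNA-NC cells, 13.5% and 13.5% in shRNA-*Ddx5* cells, and 3.46% and 4.75% for the interaction. The 13 lower and the 13 raised genes both include *Fos*, which reached the filter only through shRNA-NC cells with cytokines and so had to differ. It had 2.06 FPKM there, 0.371 in shRNA-NC cells in medium and 0.518 in shRNA-*Ddx5* cells with cytokines. *Etv4* reached the filter only through libraries with cytokines. *Egr1*, an immediate early transcription factor, had 59.1 ± 8.46 FPKM in shRNA-NC and 2.09 ± 0.432 FPKM in shRNA-*Ddx5* cells with cytokines (SD, n = 3; log2 difference -4.28, adjusted p = 3.62e-07). *Dusp5*, *Dusp4* and *Dusp6*, phosphatases that act on ERK and related kinases, fell with cytokines (-3.94, -2.62 and -2.05, adjusted p = 6.40e-08, 1.15e-07 and 3.07e-07) and in medium (-0.89, -1.27 and -0.65, adjusted p = 9.11e-04, 1.21e-05 and 6.25e-04). *Etv4* and *Etv5*, transcription factors induced by FGF signals, fell with cytokines (-0.72 and -1.17, adjusted p = 9.95e-05 and 8.19e-06) and had -0.04 and -0.02 in medium (adjusted p = 0.770 and 0.898). Many of these genes also respond to other stimuli of ERK, IL-1β and TNF-α among them.

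**Figure D5:**
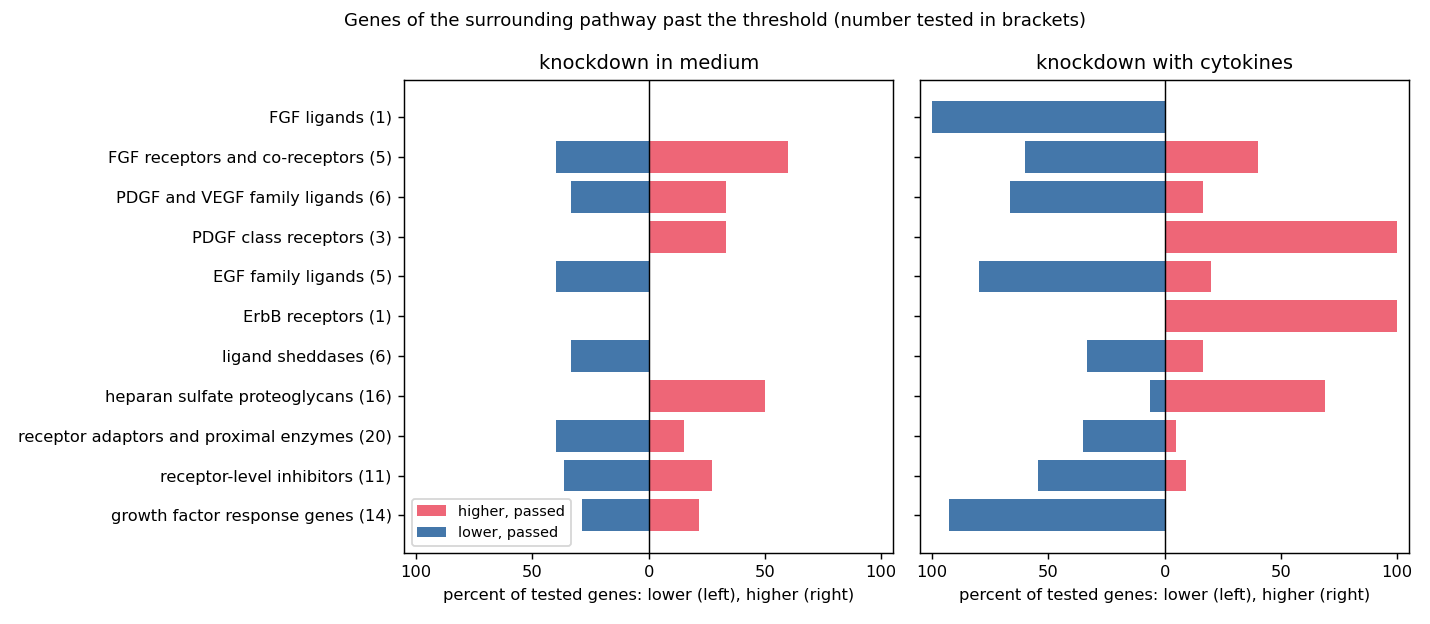
Percent of the tested genes of each list (number in brackets, including any of the 10 genes) that passed as higher (right) or lower (left) on knockdown, in medium and with cytokines. With cytokines 11 of 16 heparan sulfate proteoglycan genes were higher and 13 of 14 growth factor response genes were lower. Among the latter, *Fos* reached the filter only through shRNA-NC cells with cytokines.

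Over the 12 libraries, the gene whose log2(FPKM + 1) followed each of the 8 tested genes most closely was *Gm6634* for *Fgf7* (Pearson r = 0.98), *Mgat4b* for *Fgfr1* (0.98), *Cacna1a* for *Fgfr2* (0.99), *Tln2* for *Fgfr3* (0.98), *Prmt2* for *Pdgfa* (0.96), *Mmp3* for *Pdgfra* (0.99), *Rab24* for *Pdgfrb* (0.98) and *Spry2* for *Hbegf* (0.98). These values describe a search over all tested genes in libraries that fall into 4 groups and carry no test.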

How the data were processed

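RNA-seq of 12 ATDC5 libraries was analysed as 4 groups of 3, taken from the labels. The authors counted fragments with featureCounts and deposited FPKM, scaled by gene length and a library denominator. The submitters' processing notes list HISAT2 2.0.5, featureCounts 1.5.0-p3, DESeq2 1.20.0 and mm10, whereas the coordinates deposited in the table follow GRCm39. FPKM times gene length gave whole fragments for 100% of values (tolerance 0.001). The denominators were 0.957 to 1.08 times the sums of fragments. The labels do not state separate cultures, but a legend of the paper calls the replicates biologically independent experiments. The p-values set a difference against the spread between libraries of the same group. That spread was pooled over the 4 groups and moderated over genes.

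limma 3.58.1 in R 4.3.3 (lmFit, eBayes with trend) was fitted to log2(FPKM + 1) of 12368 genes with 4 group means; a fold is a ratio of mean FPKM. All 10 genes were named. Of each other list, at most the 3 genes with the largest knockdown difference among those that passed were named, apart from *Etv4*, *Etv5*, *Spry4* and *Dusp6*. *Fos*, *Btc* and *Il17rd* were also named because of how they reached the filter. The genes and lists were chosen with earlier results of these data known. The model was tested on simulated data for the knockdown in medium only. The simulation gave every gene the same spread setting and changed far fewer genes than passed in the data. It does not cover the other comparisons. Alternatives were a pseudocount of 0.1, other filters, scalings and priors, voom, a replicate block, only the 6 libraries of a contrast, and each library left out. The fit of voom to genes with at least 10 fragments was added after seeing the data. Promoter sequences were those of RefSeq (table of GRCm38.p6), placed on GRCm39 by exact unique match. A further promoter sequence is not reported here. Figures were drawn with matplotlib 3.10.9.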

Additional observations from a re-analysis of the deposited data

Results flagged for a closer look

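The effect of knockdown differed between cells with cytokines and cells in medium, by the interaction of the limma fit, for 4 of the 8 tested genes. It was higher with cytokines by 1.23 for *Pdgfrb* and by 0.64 for *Pdgfra* on the log2 scale, and differed by -1.40 for *Fgfr2* and -1.64 for *Hbegf*. Over all tested genes the interaction passed for 8.21%. *Pdgfra* reached the filter only through the libraries with cytokines. For *Pdgfrb*, *Fgfr2* and *Hbegf* the call was kept in each of 12 fits that left out a library, whereas for *Pdgfra* it was lost in 11 of them. The summed chondrocyte markers also differed between the groups. In medium they were 41.8 to 48.1 FPKM in shRNA-NC and 32.4 to 35.3 FPKM in shRNA-*Ddx5* cells. With cytokines they were 14.7 to 21.3 and 11.9 to 12.1 FPKM. The interaction passed for 0 of the 5 markers tested, against 8.21% of all tested genes, so with so few markers this count says little. The lowest adjusted p among them was that of *Sox9* (-0.42, adjusted p = 0.054). The part of the markers in the differences above was not tested.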

How the results depend on the processing

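No log2 difference of the 8 tested genes with a call changed direction under any alternative or without any library. With the replicate block, *Fgf7* on knockdown with cytokines (-0.51, adjusted p = 0.0751) and the interaction of *Pdgfra* (0.64, adjusted p = 0.0908) no longer passed. No other call of the 8 genes changed. Libraries with the same number did not all deviate together (correlations from -0.368 to 0.448), and whether the numbers pair libraries is not known. The *Fgf7* call was also lost with a pseudocount of 0.1 (adjusted p = 0.0525), without the filter (0.106) and without the trend (0.0508). *Pdgfa* lost its call with cytokines without the filter (0.0560) and with quantile normalization (0.0729), and its rise with cytokines in shRNA-NC cells without the filter (0.0672), with scaling to the sum of fragments (0.0676) and with only the 6 libraries compared (0.0652). With only the 6 libraries compared, *Pdgfrb* in shRNA-*Ddx5* cells gained a call (0.0247) and the cytokine difference of *Pdgfra* in shRNA-NC cells had adjusted p = 0.0509. The interaction of *Pdgfra* was lost in 6 of 8 alternatives. The number of genes that passed on knockdown with cytokines was 5 to 8 of 8 when a library was left out. Over all tested genes it was 4506 to 6054 in these fits, against 5645 with all libraries. The interaction over all genes was called for 559 to 1123 genes against 1016. Its lowest counts came without shRNA-NC in medium replicate 2 (628), shRNA-*Ddx5* in medium replicate 3 (600) or shRNA-*Ddx5* with cytokines replicate 1, 2 or 3 (610, 632 and 559). The cause was not tested. Depth limits *Fgf2* and *Egfr*, at 0 to 18 fragments per library.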
